A study of Mus musculus with 27 samples.

Results

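Immediate early genes were followed in a mouse medulloblastoma treated with a blocker of Hedgehog signalling. The set was fixed by name and comprised 10 of the 45101 probe sets of the Affymetrix mouse array, which stand for 9 genes. These were Fos (1423100_at), Fosb (1422134_at), Jun (1417409_at and 1448694_at), Junb (1415899_at), Atf3 (1449363_at), Egr1 (1417065_at), Nr4a1 (1416505_at), Dusp1 (1448830_at) and Ier2 (1416442_at). All tumours came from Ptch+/-p53-/- mice, and the labels do not say from how many donor tumours. Their cells were placed under the skin of the flank of nu/nu nude mice, which lack most T cells, so host tissue without a full immune system was part of each sample. RNA was measured in 5 resistant tumours, harvested on day 26 of dosing with NVP-LDE225, an antagonist of the Hedgehog pathway protein Smo. Of these, 2 came from mice on 20 mg/kg/day and 3 from mice on 160 mg/kg/day, each given 2 times a day. A further 8 tumours were labelled sensitive and taken 4, 16 or 48 h after LDE225 at 20 mg/kg/day given once daily, with 3, 3 and 2 mice. The 8 vehicle tumours had the same times and numbers. DNA was measured in 6 other arrays, from 3 resistant and 3 vehicle tumours of day 26, each hybridised with normal mouse liver DNA. The resistant DNA tumours were 1 each from LDE225 at 40, 80 and 160 mg/kg/day, given 2 times a day. Vehicle RNA of day 26 was not analysed here.

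Immediate early genes are switched on by signals that act on proteins already in the cell, so no new protein has to be made first. Growth factor and stress kinases reach them through SRF and its partners at CArG boxes, and through CREB family proteins at cAMP response elements (CRE). Fos and Fosb proteins pair with Jun or Junb to form AP-1, which binds DNA as a dimer. Atf3 is a stress-induced member of the ATF/CREB family. Egr1 is a zinc finger transcription factor and Nr4a1 an orphan nuclear receptor. Dusp1 is a phosphatase that switches off MAP kinases and so limits the signal, and Ier2 is a small nuclear protein. In nerve cells and their precursors these transcripts are known as short-lived reporters of recent signalling.

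The promoters that precede these transcripts are shown because CArG boxes and CRE can lie in them. RefSeq promoters of GRCm38.p6 were found for 7 of the 9 genes, and the 250 bases before the start of each were searched. No promoter was found for Egr1 and Ier2, so those genes were not searched. The Fos promoter lies at chr12:85473640-85473889 on the plus strand. The Atf3 promoter lies at chr1:191183334-191183583 on the minus strand, and that of Junb at chr8:84978749-84978998 on the minus strand. The Dusp1 promoter lies at chr17:26508473-26508722 on the minus strand. Capitals mark the short CRE motif TGACG, or CGTCA where it lies on the other strand, and the full CRE TGACGTCA.
Fos: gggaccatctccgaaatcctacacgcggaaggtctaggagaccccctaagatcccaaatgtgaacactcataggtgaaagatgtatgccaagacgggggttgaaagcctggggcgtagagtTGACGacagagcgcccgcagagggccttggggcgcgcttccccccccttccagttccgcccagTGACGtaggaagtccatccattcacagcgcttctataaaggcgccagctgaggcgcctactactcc
Atf3: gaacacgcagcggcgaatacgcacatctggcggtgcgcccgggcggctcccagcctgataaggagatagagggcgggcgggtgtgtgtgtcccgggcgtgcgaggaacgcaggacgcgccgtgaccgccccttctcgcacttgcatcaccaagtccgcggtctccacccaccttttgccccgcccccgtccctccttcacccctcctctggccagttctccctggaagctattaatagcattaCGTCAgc
Junb: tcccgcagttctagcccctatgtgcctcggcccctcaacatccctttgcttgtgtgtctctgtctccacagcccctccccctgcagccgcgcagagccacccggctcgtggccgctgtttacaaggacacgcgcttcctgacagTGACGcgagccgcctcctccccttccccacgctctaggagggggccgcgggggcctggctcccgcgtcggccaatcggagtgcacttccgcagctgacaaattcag
Dusp1: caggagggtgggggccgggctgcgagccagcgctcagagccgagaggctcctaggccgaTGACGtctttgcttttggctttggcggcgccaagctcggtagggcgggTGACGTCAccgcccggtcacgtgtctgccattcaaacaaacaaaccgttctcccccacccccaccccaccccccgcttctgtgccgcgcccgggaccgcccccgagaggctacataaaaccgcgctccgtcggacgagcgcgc
The short motif TGACG, searched on both strands, was in 6 of the 7 promoters and in 17.9% of 27025 mouse promoters of the same length. Jun was the promoter without it. The longer core TGACGT, which contains the short motif, was in 3 of the 7, those of Atf3, Fos and Dusp1, against 6.56% of all promoters. The full palindrome TGACGTCA was in Dusp1 only, 143 bases before the start counted at its first base, against 1.62% of all. With 1 free base, as TGACNTCA, a match was also in Jun, 45 bases before its start, against 7.59% of all. The CArG box, searched as CC, 6 bases of A or T, and GG, was in none of the 7 windows, against 1.4% of all promoters. Variants of this motif and sites further than 250 bases before the start were not searched. The count thus does not show that these genes lack CArG boxes. The 7 promoters held between 58.4% and 74.4% G and C, against a median of 52.0% over all promoters, and the motifs were not matched on base content. In Fos the short motifs began 129 and 66 bases before the start, and in Junb 1 began 106 bases before it.

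The deposited values were linear MAS5 signals in arbitrary units, with array means between 221 and 256. Correlations between arrays lay between 0.862 and 0.981. The 3' to 5' ratio of the actin control probe sets, a sign of RNA quality and labelling, ran from 1.53 to 1.91 over the 12 arrays taken at 4 h or 16 h, and from 1.25 to 1.40 over the 9 others, from 48 h and resistant tumours. Comparisons of LDE225 with vehicle at 1 time therefore lie within one of these ranges, and comparisons across times or with resistant tumours may not. Of the 10 probe sets, 8 were at or above their array's 40th percentile on all 21 arrays, Atf3 on 19 and Fosb on 4. All 10 passed the filter on low values, which asked for 2 such arrays. Fosb was near the floor, with signals between 0.3 and 22 over all arrays, and its values carry little information. Differences below are log2 differences of signal plus an offset of 4, with standard errors (SE) from 1 limma model, and a probe set was called at a Benjamini-Hochberg adjusted p under 0.05 over 32842 probe sets. In bulk tumour RNA, fewer cells of a type and less RNA per cell cannot be told apart.

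**Figure D1:**
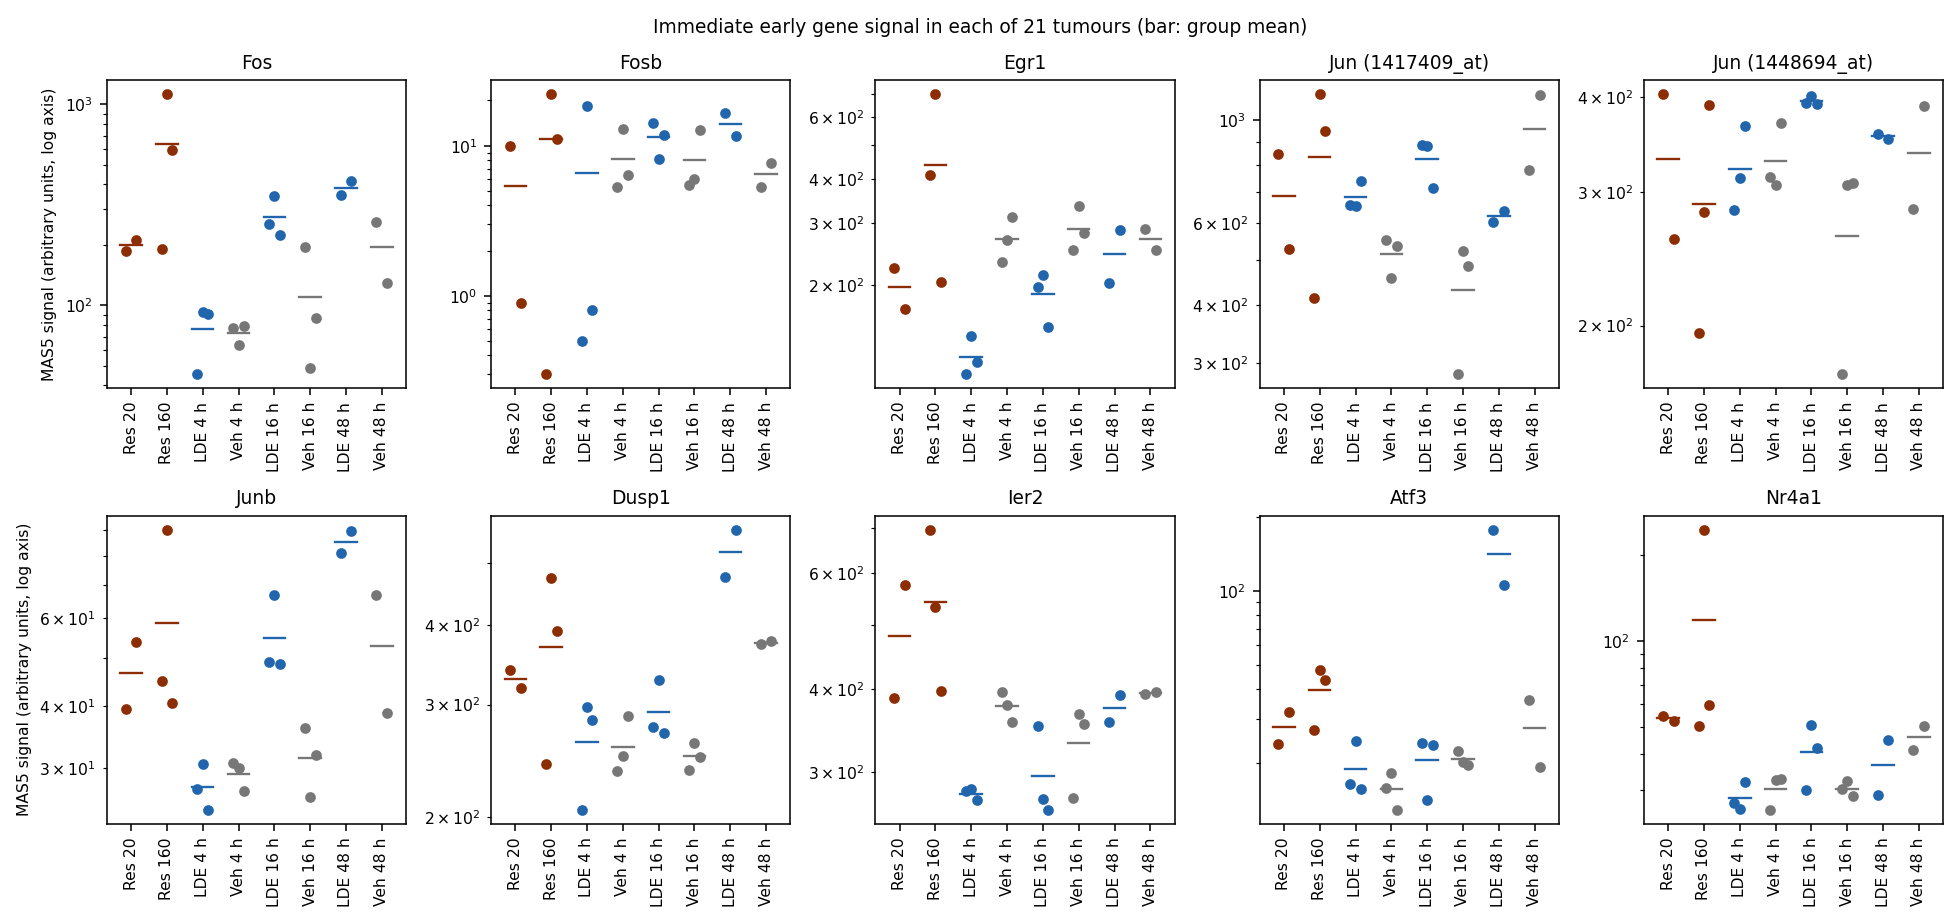
MAS5 signal in arbitrary units on a log axis for each of the 10 probe sets, with 1 point per tumour and a bar at the mean of each group. Res 20 and Res 160 are resistant tumours by dose in mg/kg/day, LDE the sensitive tumours under LDE225 and Veh the vehicle tumours by hours. Atf3 stood at 177.1 and 105.9 in the LDE225 tumours of 48 h and at or below 47.7 in the other 19 tumours.

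At 4 h after LDE225, 0 of the 10 probe sets were called by limma, and 0.104% of all tested probe sets were. Their median difference was -0.06, against 0.02 over all probe sets. Of all 32842 tested probe sets, 2090 had an unadjusted limma p under 0.05, as had 2 of the 10. Those were Egr1 and Ier2, both with lower values under the drug. Egr1 had 111.3, 142.7 and 120.6 units in LDE225 tumours, against 232.3, 268.2 and 311.7 units in vehicle tumours. The groups did not overlap, and the 3 LDE225 values of 4 h were the lowest Egr1 values of all 21 arrays. The difference was -1.09 (SE 0.29, n = 3 each), with a limma p of 0.0013 that became 0.35 after adjustment over all probe sets. Fitted to the arrays of 4 h alone, the same difference had a limma adjusted p of 0.016, and with array weights it was -1.04 with an adjusted p of 0.037. Ier2 had 280.6, 282.5 and 272.5 units in LDE225 tumours, against 397, 379.4 and 357.6 units in vehicle tumours. These groups did not overlap either, with a difference of -0.43 (SE 0.18, limma adjusted p = 0.74). Among the AP-1 genes at 4 h, Jun on 1417409_at had 657.6, 652.6 and 740 units in LDE225 tumours, against 552.8, 458.8 and 537.6 units in vehicle tumours. These groups were apart with the LDE225 values higher, at a difference of 0.40 (SE 0.29, limma adjusted p = 0.91). The other Jun probe set, 1448694_at, did not show this. It had 284.3, 313.2 and 366.7 units in LDE225 tumours, against 314, 306.4 and 369.4 units in vehicle tumours, with overlapping groups and a difference of -0.04 (SE 0.24, limma adjusted p = 1). Fos had 45.5, 93 and 91 units in LDE225 tumours, against 77.4, 63.5 and 79.1 units in vehicle tumours, with overlapping groups. Its difference of 0.00 had a 95% interval from -1.03 to 1.03.

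At 16 h, 2 of the 10 probe sets were called, both higher under LDE225 and both for AP-1 subunits, while 14.4% of all tested probe sets were called. The median difference of the 10 was 0.37, against 0.09 over all. A count of 2 in 10 lies near that background and is no result about the set as a whole. Fos had 254.3, 350.3 and 223.7 units in LDE225 tumours, against 195, 48.6 and 86.2 units in vehicle tumours. Every LDE225 value lay above every vehicle value, although vehicle mouse 1 came close. Fos rose by 1.49 (SE 0.49, limma adjusted p = 0.049). This call sits at the threshold and was lost in 7 of 10 other settings, with adjusted p up to 0.09, and without 5 of the 6 tumours in turn, with adjusted p up to 0.22. Jun, a partner of Fos, was read by a pair of probe sets. Its probe set 1417409_at had 884.8, 882.3 and 713.9 units in LDE225 tumours, against 284.2, 524.2 and 486.8 units in vehicle tumours. The groups were well apart, and Jun rose by 0.97 on that probe set (SE 0.29, limma adjusted p = 0.028). Its value ran from 0.70 without vehicle mouse 1 (adjusted p = 0.16) to 1.14 over the tumours left out, and the call was kept without 3 of 6. The other probe set, 1448694_at, had 392.9, 401 and 391.2 units in LDE225 tumours, against 172.6, 306.3 and 308.5 units in vehicle tumours, also without overlap. Its difference was 0.63 (SE 0.24) with a limma adjusted p of 0.082, so the calls of the Jun probe sets differed while their direction did not.

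Junb, another AP-1 subunit, had 49.1, 66.7 and 48.5 units in LDE225 tumours of 16 h, against 36.1, 26.3 and 31.9 units in vehicle tumours. The groups did not overlap, and the difference of 0.73 (SE 0.27) had a limma adjusted p of 0.077. Egr1 still had lower values under the drug, at 197.4, 213.8 and 151.9 units in LDE225 tumours, against 251.3, 334.4 and 281.5 units in vehicle tumours. The Egr1 difference was -0.62 (SE 0.29, limma adjusted p = 0.18). Atf3, Dusp1, Ier2 and Nr4a1 had differences between -0.16 and 0.36 at 16 h, none of them called. Nr4a1 had 30, 50.7 and 42 units in LDE225 tumours of 16 h, against 30.3, 32.2 and 28.5 units in vehicle tumours, with overlap.

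At 48 h, 1 of the 10 probe sets was called, while 22.7% of all tested probe sets were. The count was thus no higher than the background. The gene was Atf3, the stress-induced ATF/CREB factor. Atf3 had 177.1 and 105.9 units in LDE225 tumours, against 36 and 19.3 units in vehicle tumours. Both treated tumours stood far above all others of the series. Atf3 rose by 2.21 (SE 0.36, n = 2 each, limma adjusted p = 0.00023), and it was called in all 10 other settings and without each of the 4 tumours in turn, with adjusted p no higher than 0.018 and 0.011. Fos had 354.6 and 413.7 units in LDE225 tumours of 48 h, against 259.8 and 129.5 units in vehicle tumours. The difference of 1.04 (SE 0.60) had a limma adjusted p of 0.23. Junb had 81 and 89.8 units in LDE225 tumours, against 66.8 and 38.7 units in vehicle tumours, without overlap, and its difference of 0.70 (SE 0.33) had an adjusted p of 0.13 in limma. Dusp1, which limits MAP kinase signalling, had 476.2 and 564.5 units in LDE225 tumours, against 373 and 377.4 units in vehicle tumours. These were the highest 2 Dusp1 values of the series, but the difference of 0.46 (SE 0.23) had a limma adjusted p of 0.17. Jun on 1417409_at stood the other way, at 605.5 and 638.8 units in LDE225 tumours, against 781.2 and 1132.5 units in vehicle tumours. That difference was -0.59 (SE 0.35, limma adjusted p = 0.25). It was not seen on 1448694_at, which had 357.2 and 352.6 units in LDE225 tumours, against 285 and 389.4 units in vehicle tumours, with overlap and a difference of 0.09 (SE 0.29, limma adjusted p = 0.86).

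**Figure D2:**
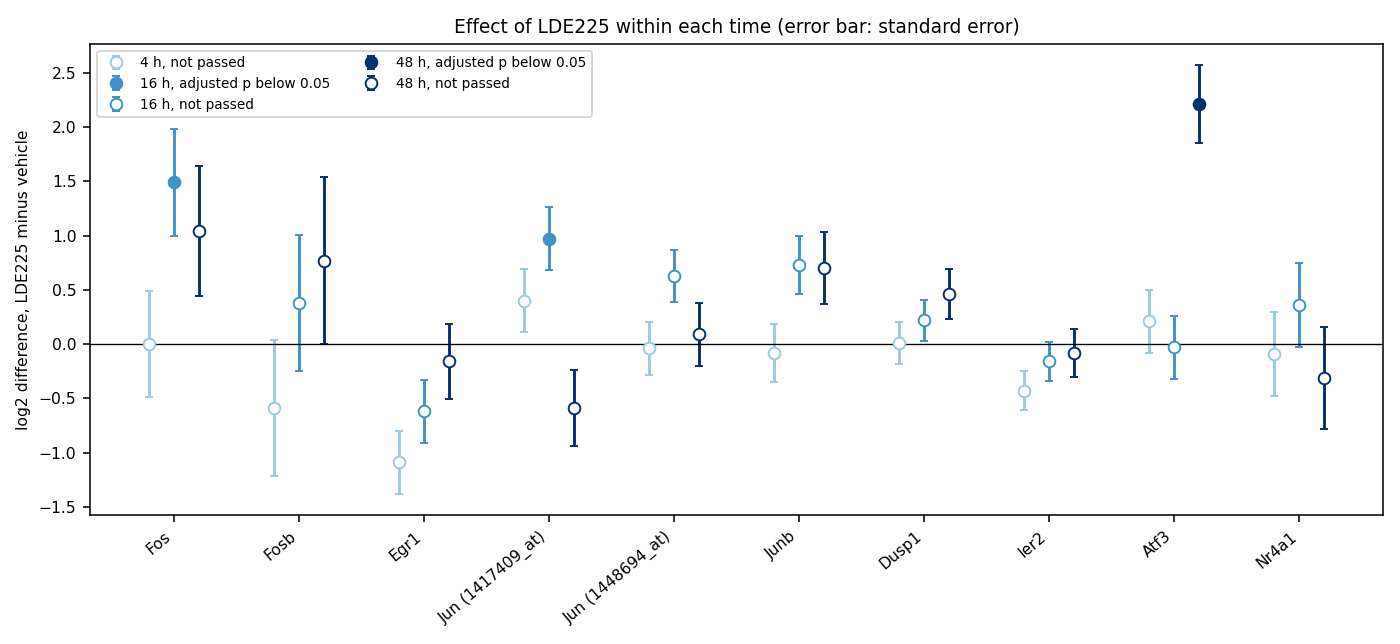
Log2 difference, LDE225 minus vehicle, for each probe set at 4, 16 and 48 h, with the standard error of the limma fit as the bar. Filled points passed an adjusted p of 0.05. Atf3 at 48 h, at 2.21, was the largest difference, and Egr1 at 4 h, at -1.09, the lowest.

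Whether the drug effect differed between times was tested as a difference of differences. Atf3 was called for 48 h against 4 h, at 2.00 (SE 0.46, limma adjusted p = 0.0079), and for 48 h against 16 h, at 2.24 (SE 0.46, limma adjusted p = 0.0099). These were 1 of the 10 probe sets each, while 12.8% of all probe sets were called for 48 h against 4 h and 4.95% for 48 h against 16 h. Without vehicle mouse 3 of 48 h the Atf3 values were 1.61 and 1.85, with adjusted p of 0.081 and 0.096, and without LDE225 mouse 1 of 48 h they were 1.64 and 1.88, with adjusted p of 0.061 and 0.069. Jun on 1417409_at had -1.57 for 48 h against 16 h (SE 0.45), with a limma adjusted p of 0.052 that was under the threshold in 5 of the other settings, while 1448694_at had -0.54 (SE 0.37, limma adjusted p = 0.44). For 16 h against 4 h, 0 of the 10 were called by limma and 3.83% of all. An unadjusted limma p under 0.05 was seen for 2 of the 10, Fos and Junb, and for 5744 of all 32842. For Egr1 the difference of 0.93 for 48 h against 4 h (SE 0.46) had a limma adjusted p of 0.20 and was not called. Fitted to the groups compared alone, the same Egr1 difference was called, with a limma adjusted p of 0.034, as was Jun on 1417409_at, at -1.0 with a limma adjusted p of 0.011.

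Averaged over the 3 times, 2 of the 10 probe sets were called, 1 in each direction, against 22.4% of all. Egr1 had differences of -1.09 at 4 h, -0.62 at 16 h and, with overlapping groups, -0.16 at 48 h (limma adjusted p = 0.79 at 48 h). Averaged over these times, Egr1 fell by 0.62 on the log2 scale (SE 0.18, n = 8 each, limma adjusted p = 0.018). It was called in all 10 other settings and without 15 of 16 tumours in turn, the exception being LDE225 mouse 1 of 48 h (adjusted p = 0.071). Atf3 rose by 0.79 (SE 0.18, limma adjusted p = 0.0039), which averages the 48 h value with 0.21 at 4 h and -0.03 at 16 h. Fos, at 0.84 (SE 0.31, limma adjusted p = 0.055), and Junb, at 0.45 (SE 0.17, limma adjusted p = 0.059), lay just outside the threshold. Nr4a1 had an average difference of -0.01 with a 95% interval from -0.52 to 0.49.

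Within the treated tumours the genes were followed over time. From 4 h to 16 h of LDE225, 2 of the 10 were called, against 8.71% of all probe sets. Fos was higher at 16 h by 1.84 (SE 0.49, limma adjusted p = 0.024), and Junb by 0.89 (SE 0.27, limma adjusted p = 0.044). The Junb call was lost without each of the 6 tumours in turn, with values between 0.75 and 0.96, and the Fos call without 4 of the 6. From 16 h to 48 h, 2 of the 10 were called, against 21.2% of all. Atf3 was higher at 48 h by 2.55 (SE 0.33, limma adjusted p = 4.5e-05) and Dusp1 by 0.83 (SE 0.21, limma adjusted p = 0.0095). The Dusp1 difference was 0.70 without LDE225 mouse 2 of 48 h, with an adjusted p of 0.10. The order of mean Fos signals under LDE225 was 76.5 ± 26.9 at 4 h, 276 ± 66.1 at 16 h and 384 ± 41.8 at 48 h (SD, n = 3, 3 and 2), and the later 2 were not called as different in limma (adjusted p = 0.58). Arrays of 48 h had the lower actin ratios, and the part of this in the 48 h against 16 h values was not tested.

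Vehicle tumours were also compared over time, and no member was called. From 4 h to 16 h, 0 of the 10 were called by limma and 0% of all. An unadjusted limma p under 0.05 was found for 0 of the 10 and for 1897 of all 32842 tested. From 4 h to 48 h, 0 of the 10 were called and 0.746% of all. The median difference of the 10 was 0.54, against 0.01 over all. The unadjusted limma p was under 0.05 for 4 of the 10, and for 3917 of all 32842. Those 4 were Fos, Jun on 1417409_at, Junb and Dusp1, each with higher values at 48 h. Dusp1 had 373 and 377.4 units at 48 h, against 236.1, 248.9 and 287.8 units at 4 h, without overlap, with a difference of 0.54 (SE 0.21, limma adjusted p = 0.30). From 16 h to 48 h, 0 of the 10 were called, against 1.37% of all. Of all 32842, 5535 had an unadjusted limma p under 0.05, as had 3 of the 10. The largest was Jun on 1417409_at, at 1.17 (SE 0.32, limma adjusted p = 0.073).

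Resistant tumours were first set against all 8 vehicle tumours. Of the 10 probe sets, 4 were called, all higher in resistant tumours, against 12.8% of all tested probe sets. The median difference was 0.43, against 0.07 over all. Without resistant mouse 2 of 160 mg/kg/day, whose values stood apart, 3 of the 10 were called, against 11.3% of all. Fos had 187 and 210.4 units in resistant tumours of 20 mg/kg/day and 190.1, 1122.5 and 590.5 units in those of 160 mg/kg/day, against 48.6, 82.6 and 259.8 units as the lowest, median and highest of the vehicle tumours. Only the 2 highest resistant values lay above all vehicle tumours. Fos rose by 1.74 (SE 0.34, limma adjusted p = 0.0027) and was called in all 12 other settings and without each of 13 tumours in turn.

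Nr4a1, the orphan nuclear receptor, had 54.7 and 52.4 units at 20 mg/kg/day and 50.3, 245.3 and 59.4 units at 160 mg/kg/day, against 25.6, 32.4 and 50.3 units as the lowest, median and highest of the vehicle tumours. The lowest resistant value equalled the highest vehicle value. Nr4a1 rose by 1.05 (SE 0.27, limma adjusted p = 0.015). Mouse 2 of 160 mg/kg/day stood far above the rest, and without it the difference was 0.63 (SE 0.17), still called with a limma adjusted p of 0.020.

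Ier2 had 388.1 and 574.6 units at 20 mg/kg/day and 697, 532.1 and 397.2 units at 160 mg/kg/day, against 273.8, 374 and 397 units as the lowest, median and highest of the vehicle tumours. Of the 5 resistant values, 4 lay above all vehicle values. Ier2 rose by 0.47 (SE 0.13, limma adjusted p = 0.019). With each array centred on its median, which shifted the median over all probe sets to -0.14, Ier2 stood at 0.27 with an adjusted p of 0.21. Atf3 had 23.8 and 32.3 units at 20 mg/kg/day and 27.1, 47.7 and 43.5 units at 160 mg/kg/day, against 12.9, 19.4 and 36 units as the lowest, median and highest of the vehicle tumours. The groups overlapped, with 2 resistant tumours above all vehicle tumours. Atf3 rose by 0.67 (SE 0.20, limma adjusted p = 0.038), a call kept in 5 of 12 other settings and without 5 of 13 tumours in turn. The remaining genes were not called.

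Junb had 39.5 and 53.7 units at 20 mg/kg/day and 44.8, 90.3 and 40.6 units at 160 mg/kg/day, against 26.3, 31.3 and 66.8 units as the lowest, median and highest of the vehicle tumours. All 5 resistant values were above the vehicle median, at a difference of 0.52 (SE 0.19, limma adjusted p = 0.073). Dusp1 had 340.1 and 318.2 units at 20 mg/kg/day and 241.7, 473.4 and 391.2 units at 160 mg/kg/day, against 236.1, 255 and 377.4 units as the lowest, median and highest of the vehicle tumours. These overlapped, at a difference of 0.30 (SE 0.13, limma adjusted p = 0.15). Jun on 1417409_at averaged 775 ± 299 units in resistant and 595 ± 256 units in vehicle tumours (SD, n = 5 and 8), a difference of 0.39 (limma adjusted p = 0.22). On 1448694_at it averaged 306 ± 88.8 units in resistant and 306 ± 64.7 units in vehicle tumours, a difference of -0.02 with a 95% interval from -0.36 to 0.33. Egr1 averaged 341 ± 220 units in resistant and 277 ± 33.9 units in vehicle tumours, and its difference of 0.10 had a 95% interval from -0.33 to 0.52. Resistant tumours were more spread for Egr1, with values from 170.6 to 696.9 units, against 232.3 to 334.4 units in vehicle tumours.

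These results depended on which vehicle tumours were used. The 2 vehicle tumours of 48 h had actin ratios of 1.30 and 1.25, against 1.27 to 1.40 in the resistant arrays. Vehicle mouse 1 thus lay within the resistant range and mouse 3 just below it. Against these 2, 0 of the 10 were called by limma and 1% of all. An unadjusted limma p under 0.05 was found for 0 of the 10 and for 4171 of all 32842 tested. Fos then stood at 0.90 (SE 0.50, limma adjusted p = 0.49), Nr4a1 at 0.65 (SE 0.40, adjusted p = 0.54) and Ier2 at 0.35 (SE 0.19, adjusted p = 0.45). Atf3 stood at 0.31 (SE 0.30, limma adjusted p = 0.74). Against the 6 vehicle tumours of 4 h and 16 h, a comparison chosen after seeing the data, 7 of the 10 were called and 16.2% of all, with Fos at 2.01 (SE 0.36, limma adjusted p = 0.001) and Nr4a1 at 1.18 (SE 0.29, limma adjusted p = 0.0081). Those 6 arrays and the resistant arrays had actin ratios that did not overlap, so resistance, time of harvest and this ratio cannot be told apart there. With each group of tumours weighted equally, also chosen after seeing the data, Fos stood at 1.51 (limma adjusted p = 0.0091) and Atf3 at 0.58 (limma adjusted p = 0.079).

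**Figure D3:**
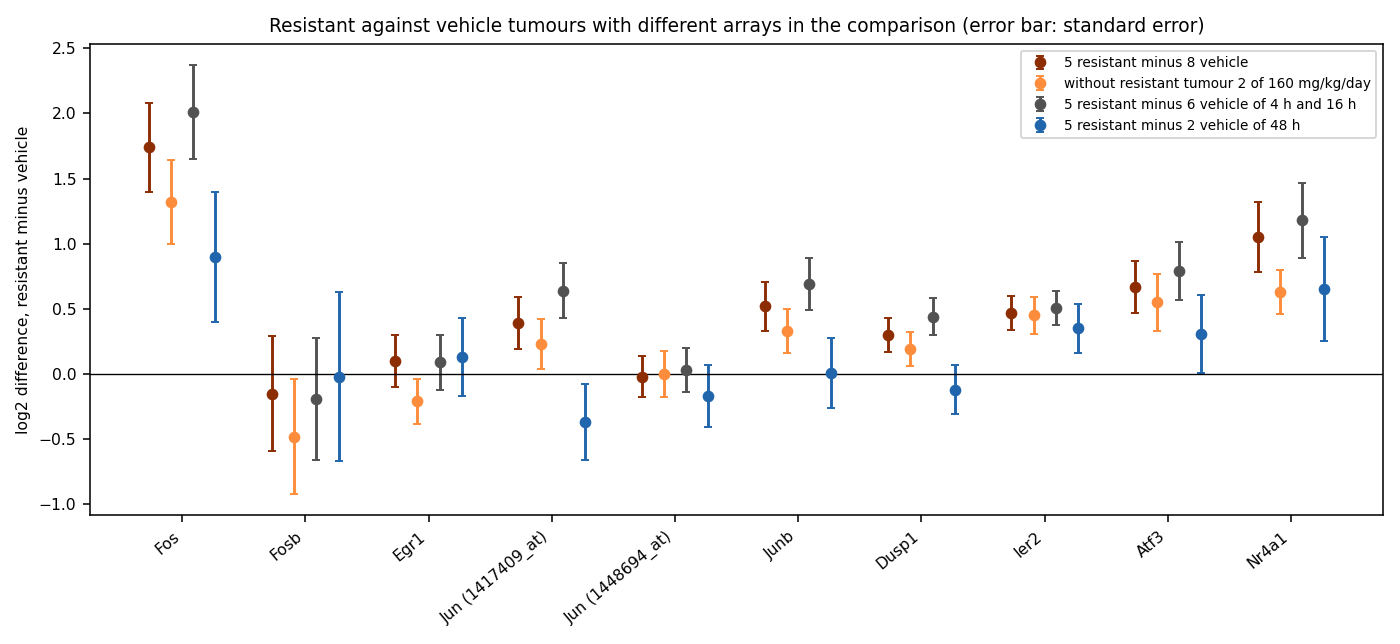
Log2 difference, resistant minus vehicle, for each probe set, with the standard error of the limma fit as the bar, for 4 choices of arrays. Fos was at 1.74 against all vehicle tumours, at 1.32 without resistant mouse 2 of 160 mg/kg/day, at 2.01 against vehicle tumours of 4 h and 16 h, and at 0.90 against those of 48 h.

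By dose, 0 of the 10 were called by limma at 20 mg/kg/day against vehicle, with 7.52% of all called. At this dose 1 of the 10, Ier2, had an unadjusted limma p under 0.05, as had 7510 of all 32842 tested. At 160 mg/kg/day 4 of the 10 were called, against 7.88% of all. These were Fos at 2.27 (SE 0.41, limma adjusted p = 0.0027), Nr4a1 at 1.34 (SE 0.32, limma adjusted p = 0.015), Ier2 at 0.54 (SE 0.15, limma adjusted p = 0.034) and Atf3 at 0.83 (SE 0.24, limma adjusted p = 0.041). Mouse 2 of that dose was the highest of all 21 arrays for 6 of the 10 probe sets and for 8.56% of all tested probe sets. Without it 1 of the 10 was called and 4.45% of all. This was Fos, at 1.69 (SE 0.41, limma adjusted p = 0.024), while Nr4a1 stood at 0.64 (SE 0.22, limma adjusted p = 0.10). The doses themselves were not shown to differ, since 0 of the 10 were called for 160 against 20 mg/kg/day, with 0.773% of all called. In that comparison 2 of the 10, Fos and Egr1, and 4477 of all 32842 had an unadjusted limma p under 0.05. Egr1 had 410, 696.9 and 204.2 units at 160 mg/kg/day, against 222.5 and 170.6 units at 20 mg/kg/day, with a difference of 0.98 (SE 0.32, limma adjusted p = 0.17). Without mouse 3 of 160 mg/kg/day it was 1.44, with a limma adjusted p of 0.0091. Without mouse 2 of that dose it was 0.56, with a limma adjusted p of 0.37. Fos was at 1.32 (SE 0.55, limma adjusted p = 0.29), and at 2.02 (limma adjusted p = 0.023) without mouse 1 of 160 mg/kg/day. Without mouse 2 of that dose Fos was at 0.75 (limma adjusted p = 0.56).

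Resistant tumours were also set against sensitive tumours under LDE225 at 16 h and 48 h, where 2 of the 10 were called, against 26% of all. Ier2 rose by 0.64 (SE 0.14, limma adjusted p = 0.0025) and was called without each of 10 tumours in turn. Nr4a1 rose by 0.88 (SE 0.30, limma adjusted p = 0.037), and without resistant mouse 2 of 160 mg/kg/day it was at 0.45 (limma adjusted p = 0.078). The Nr4a1 call was also lost without LDE225 mouse 1 or mouse 3 of 16 h (limma adjusted p = 0.076 and 0.051). The same held without LDE225 mouse 1 of 48 h (limma adjusted p = 0.093), so it was kept without 6 of 10 tumours in turn. With each group weighted equally, chosen after seeing the data, Nr4a1 stood at 0.82 (limma adjusted p = 0.054). Fitted to the compared groups alone, the limma adjusted p of Nr4a1 was 0.13. Fos, called in resistant against vehicle tumours, stood at 0.15 here, with a 95% interval from -0.64 to 0.95. A comparison with only the 2 LDE225 tumours of 48 h was added once the data had been seen, and it called 2 of the 10 and 30.3% of all. These were not the 2 genes above, since Ier2 stood at 0.43 (SE 0.19, limma adjusted p = 0.091) and Nr4a1 at 0.96 (SE 0.40, limma adjusted p = 0.075). In it Atf3 fell by 1.90 on the log2 scale (SE 0.30, limma adjusted p = 1e-04) and Dusp1 fell by 0.58 on that scale (SE 0.19, limma adjusted p = 0.028). The sensitive tumours had LDE225 once daily and the resistant ones 2 times a day.

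Among themselves the probe sets varied to different degrees. The SD over the 21 arrays on the log2 scale was 1.19 for Fos, which is larger than that of 97.6% of tested probe sets, and 0.85 for Atf3, larger than that of 91.6%. Jun on 1448694_at, at 0.32, and Ier2, at 0.36, varied least. Each probe set was compared with the mean of the other 9 over the 21 arrays, which share groups. Dusp1 had a Pearson correlation of 0.86, Fos of 0.83 and Junb of 0.83, against 0.42 for Egr1, 0.32 for Ier2 and 0.16 for Jun on 1448694_at. The mean profile of the 10 was highest in resistant mouse 2 of 160 mg/kg/day, at 1.14 above the average of all arrays on the log2 scale, and lowest in LDE225 mouse 1 of 4 h, at -0.71. Outside the set, the probe sets most like this profile over the 21 arrays were 1419647_a_at and 1455642_a_at, each with a correlation of 0.94, and the tables used here give them no gene names.

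Copy number at the genes was read from DNA arrays of 3 resistant and 3 vehicle tumours, as log2 of tumour over liver signal. One resistant DNA array, that of 160 mg/kg/day, is called vehicle in its title and source name. It is called resistant in its status, treatment and dose labels, and those 3 labels were used. The values of the groups did not overlap at 6 of the 9 genes, while 46.5% of 25703 named genes showed the same, which is near the members' share. Without the array of 160 mg/kg/day the count was again 6 of 9, and 53.1% of all named genes. Over the 6 arrays left out in turn the count ran from 6 to 8 and the share over all named genes from 49.8% to 60.8%. Designs of 3 against 3 arrays allow no exact permutation p under 0.1. No tumour is stated to be in both the RNA and the DNA set. Fos, with 3 probes between 86364949 and 86366386 on chromosome 12 of mm8, was at 0.00, 0.10 and -0.16 in resistant tumours of 40, 80 and 160 mg/kg/day, against 0.20, 0.02 and 0.11 in vehicle tumours. These overlapped, with a mean difference of -0.13 (two-sided exact permutation p = 0.2). Atf3, with 3 probes between 192870995 and 192882716 on chromosome 1, was at -0.23, -0.43 and -0.26 in resistant tumours, against 0.05, -0.12 and -0.07 in vehicle tumours. The difference of -0.26 had the smallest p the design allows (two-sided exact permutation p = 0.1). Nr4a1, with 2 probes between 101095713 and 101102562 on chromosome 15, was at 0.02, 0.06 and 0.05 in resistant tumours, against 0.17, 0.09 and 0.18 in vehicle tumours. Fos and Nr4a1 had the largest RNA differences in resistant against vehicle tumours, and their mean DNA differences were -0.13 and -0.10. The doses of the RNA and DNA sets differed in part, and a link between DNA and RNA was not tested. Dusp1 had 1 probe, at chr17:26233220-26233279 of mm8, which read 0.94, 0.81 and 0.75 in resistant tumours, against 0.05, 0.45 and 0.15 in vehicle tumours. The median of the 17 probes between its neighbouring genes was -0.01, 0.07 and -0.05 in resistant tumours, against 0.07, 0.15 and 0.12 in vehicle tumours. In resistant tumours the single probe, which is among the 17, thus lay above that median. The SD of the 17 was 0.71, 0.63 and 0.77 in resistant and 0.49, 0.48 and 0.61 in vehicle tumours. With this spread, the single probe is not shown to stand apart from its surroundings. Egr1 likewise had 1 probe, with a mean of 0.77 in resistant and 0.34 in vehicle tumours, and with the neighbouring probes its difference turned from 0.43 to -0.08. Junb had no probe of its own name and was read from 6 probes between Prdx2 and Hook2, at a difference of -0.06 (two-sided exact permutation p = 0.6). The noise of a single probe, taken from the median absolute difference between neighbouring probes and scaled to an SD, was between 0.28 and 0.462 in resistant and between 0.132 and 0.199 in vehicle arrays.

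**Figure D4:**
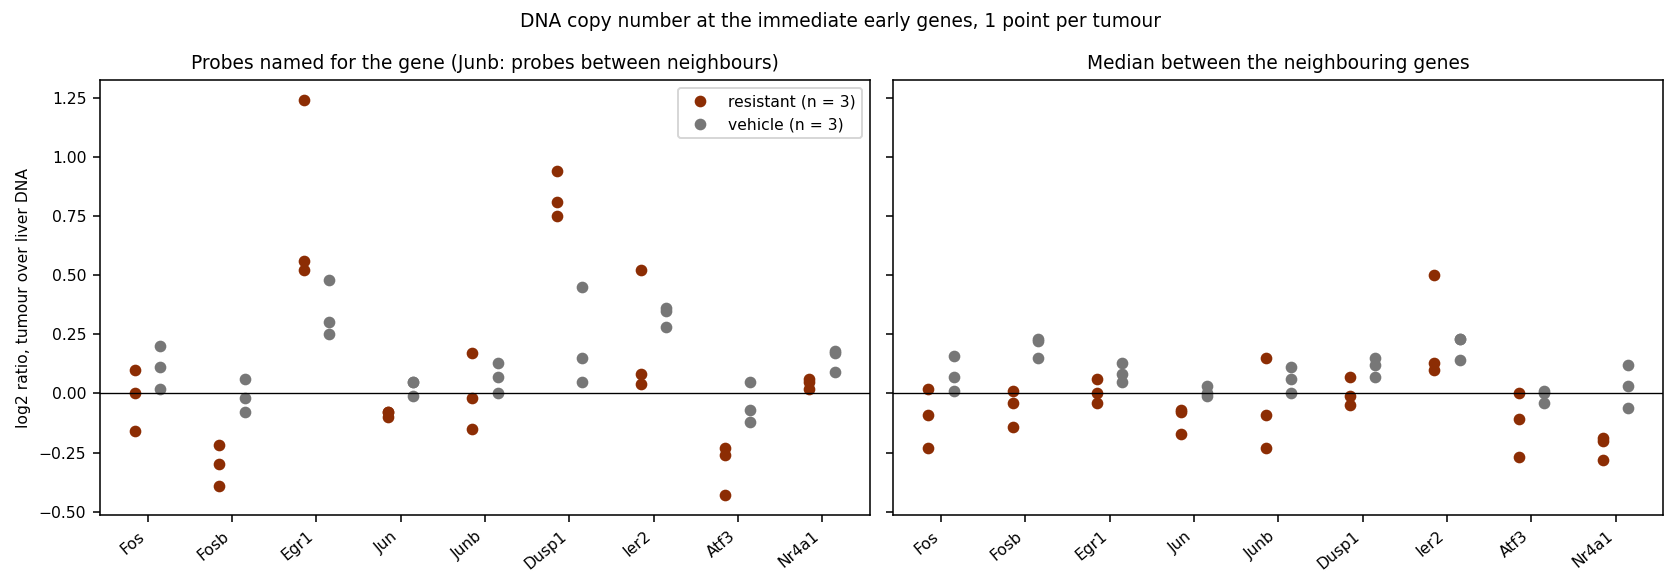
DNA log2 ratio of tumour over liver at each gene, with 1 point per tumour, for 3 resistant and 3 vehicle tumours, from probes named for the gene in the left panel and as the median between the neighbouring genes in the right panel. Egr1 and Dusp1, with 1 named probe each, stood above 0.5 in resistant tumours in the left panel and near 0 in the right panel.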

How the data were processed

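RNA was measured in 21 tumours and DNA in 6. The RNA intensities deposited by the authors are linear MAS5 signals, per the submitters' processing notes, and their scaling is not given in these sources. The DNA files hold intensities of Feature Extraction 9.5.3.1 on build mm8, background-subtracted and dye-normalized per the file headers. The authors' value table of log10 ratios, also deposited, had correlations of at least 0.9996 to the ratios in the scanner files. Tumour DNA was in Cy5 and liver DNA in Cy3 per the labels.

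The deposited RNA intensities were used as log2 of signal plus 4, the rounded 20th percentile, which understates changes of dim probe sets. Probe sets at or above their array's 40th percentile on 2 arrays were kept, without 64 controls. One limma 3.58.1 model (R 4.3.3) with a mean-variance trend covered 8 groups with 13 residual degrees of freedom, and 18 comparisons were made. Tests were two-sided, checked on simulated data, and pooled sides weighted tumours equally. The RNA tumours of a group came from separate mice per the labels, and the number of arrays limits precision. For DNA, log2 ratios were centred on the autosomal median of each array and averaged over the probes named for a gene, with exact permutation tests in scipy 1.17.1.

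All 10 probe sets are named, as is the pair outside the set most correlated with their mean. The members and lists were chosen with earlier results of these data known. Lists of other immediate early genes, regulators, stress genes and cell type markers were not analysed here, nor was the labelled tumour type checked against its markers, since the tables used give other probe sets no gene names. Mouse numbers shared by LDE225 and vehicle groups are not stated to pair the tumours and were not used as pairs. Correlations of deviations from group means lay between -0.20 and 0.18 for the same number, and between -0.22 and 0.34 for different numbers. From groups of 2 or 3 tumours these values cannot decide whether tumours were paired.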

Additional observations from a re-analysis of the deposited data

Results flagged for a closer look

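Each probe set was screened for a tumour far from the others, in 30 groups, of which 4 had one. The groups were the resistant tumours, the vehicle tumours and the LDE225 tumours of 16 h and 48 h. LDE225 tumours of 4 h were not screened. Chance alone gives about 1 in 20 where the tumours of a group are of 1 kind, but these groups mixed times or doses. Among the resistant tumours Nr4a1 stood at 245.3 units in mouse 2 of 160 mg/kg/day, against 59.4 units in the next, and the result without that tumour was given with the Nr4a1 values. Among the vehicle tumours Junb was at 66.8 units in mouse 1 of 48 h, with the next at 38.7 units. Mouse 1 of 16 h was lowest for both Jun on 1448694_at, at 172.6 units with the next at 285 units, and Ier2, at 273.8 units with the next at 355 units.

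The effect of LDE225 on Atf3 differed between times, by 2.00 on the log2 scale for 48 h against 4 h (limma adjusted p = 0.0079) and by 2.24 for 48 h against 16 h (limma adjusted p = 0.0099).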

How the results depend on the processing

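Counts are of the 10 probe sets called by limma, and a percentage in brackets is the share of all tested probe sets called under the same setting. LDE225 against vehicle at 4 h had 0 (0.104%), but 1 with array weights (0.283%) and 1 from the compared groups alone (0.359%). At 16 h the 2 (14.4%) became 1 with the larger offset (14.5%), without the filter (9.31%), with quantile normalization (14%) or with robust eBayes (14.4%), 0 with median centring (10.5%) or without the trend (12.6%), and 4 with array weights (22%). The mean of the times had 2 (22.4%), but 5 with array weights (30.6%) and 4 from the compared groups (27.4%). The 48 h minus 4 h effect had 1 (12.8%), but 3 from the compared groups (16%). The 48 h minus 16 h effect had 1 (4.95%), but 2 with the larger offset (6.33%), quantile normalization (6.32%), median centring (5.39%), array weights (9.85%) or the compared groups (6.53%). Resistant against vehicle had 4 (12.8%), but 2 with median centring (15.7%) or the compared groups (7.68%) and 7 with vehicle tumours of 4 h and 16 h (16.2%). Resistant at 160 mg/kg/day had 4 (7.88%), but 2 with median centring (9.05%) or array weights (1.95%) and 1 from the compared groups (2.86%). Resistant against sensitive under LDE225 had 2 (26%), but 1 from the compared groups (21.2%). Vehicle at 48 h against 16 h had 0 (1.37%), but 1 with array weights (3.16%). LDE225 at 16 h against 4 h had 2 (8.71%), but 1 with the larger offset (8.79%), no filter (5.42%), quantile normalization (8.45%), median centring (6.56%) or robust eBayes (8.72%). LDE225 at 48 h against 16 h had 2 (21.2%), but 1 with median centring (26.1%). Leaving out 1 tumour gave 0 to 1 at 16 h, 1 to 4 for the mean of the times, 0 to 1 for 48 h minus 4 h and 0 to 2 for 48 h minus 16 h. It gave 3 to 5 for resistant against vehicle, 1 to 5 at 160 mg/kg/day, 1 to 3 against sensitive tumours and 0 to 1 for 160 against 20 mg/kg/day. For LDE225 it gave 0 to 1 at 16 h against 4 h and 1 to 2 at 48 h against 16 h. The causes were not tested. The mouse number is not stated to pair tumours. With it as a replicate block, resistant against vehicle and resistant at 160 mg/kg/day each had 3, both having lost Atf3. At 16 h the count was 2, but Fos was not called (limma adjusted p = 0.061) and Jun on 1448694_at was (limma adjusted p = 0.048). No other call of the 10 changed with the block in the 18 comparisons, and the counts at 48 h, 4 h and for the mean of the times were 1, 0 and 2. Median centring moved the median of all probe sets at 48 h to -0.30, against 0.09 as deposited. The DNA difference of Egr1 was 0.43 from 1 probe and -0.08 from its neighbours, and that of Dusp1 was 0.62 and -0.11. Groups of 2 or 3 tumours, comparisons without vehicle RNA of day 26 and the dim Fosb and Atf3 signals limit these results.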
